A study of Mus musculus with 15 samples.

Results

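Transcripts of 9 genes that build, cut and take up plasma lipoproteins were followed in mouse liver after gastric bypass. The genes are Mttp, Pltp, Lcat, Lpl, Lipg, Lipc, Lrp1, Vldlr and Scarb1, chosen by symbol in the table that pairs the array's transcript clusters with genes. Clusters with a single symbol were used, 1 per gene, taking the one with the highest mean over 15 arrays. Of the 9 genes 8 were matched in this way, among 22180 genes in all, and Lipc was not analysed here. Lpl had 2 clusters and each of the other 7 genes had 1.

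The liver exports triglyceride and cholesterol in very low density lipoprotein (VLDL), which is loaded with lipid in the endoplasmic reticulum. In plasma, lipases on the capillary wall strip triglyceride and phospholipid from the particles, transfer and esterifying proteins reshape high density lipoprotein (HDL), and receptors on hepatocytes clear the remnants. Lipoprotein lipase acts mostly in fat and muscle, and the adult liver normally makes little of it, much of that in its macrophages.

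Each of 15 male ApoE*3Leiden.CETP mice gave 1 liver RNA sample, hybridised to an Affymetrix Mouse Gene 2.0 ST array, and values are log2 signals as the authors deposited them. The 6 RYGB mice had Roux-en-Y gastric bypass, the 4 BWm mice had a sham operation and were kept at the body weight of the RYGB mice, and the 5 Sham AL mice had a sham operation and ate ad libitum. All groups carried both human transgenes, including CETP, a plasma transfer protein that mice otherwise lack. The sources used here do not name the promoters that drive the transgenes. Mice entered at an age of 9 to 12 weeks, settled for 2 weeks, and had 6 weeks on food holding 60% fat and 0.25% cholesterol before the operation. Livers were taken on day 20 after it. These comparisons ask what bypass changed with its weight loss (RYGB against Sham AL), what it changed at matched weight (RYGB against BWm), and what weight matching changed without bypass (BWm against Sham AL).

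The hepatocyte marker Alb measured 12.89 ± 0.04 in RYGB livers (SD, n = 6), 12.9 ± 0.02 in BWm livers (SD, n = 4) and 12.87 ± 0.04 in Sham AL livers (SD, n = 5). For 6 measured hepatocyte markers the summed linear signal was 27233 to 29112 in RYGB livers and 26478 to 28228 in Sham AL livers. It was 29248 to 29927 in BWm livers, above all livers of both other groups. The limma test described below called 1 of the 6, Cps1, higher in BWm against Sham AL livers (adjusted p = 0.0229). In that comparison 2.84% of all genes were called. The part of hepatocyte content in the group differences was not tested. Array medians lay between 3.89 and 4.02. The array of Sham AL replicate 4 stood apart, with 662 genes over 1 log2 unit from the mean of its group's other arrays, against 53 to 128 genes on the other 14 arrays. It carried fat and adrenal transcripts. Plin1, which coats the lipid droplet of fat cells, read 7.99 on it and 3.85 to 4.06 on the other Sham AL arrays. Cyp11b1, an enzyme of the adrenal cortex, read 10.37 on it and 2.39 to 3.1 on the others. Lpl is a major transcript of fat and Scarb1 of the adrenal cortex, so results are given with and without that array. Since a piece of whole liver was measured, fewer cells of a type and less RNA per cell cannot be told apart.

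With all 15 arrays, 0 of the 8 genes passed an adjusted p of 0.05 in any of the comparisons (limma across all genes, Benjamini-Hochberg adjustment). In RYGB against Sham AL, 1.38% of all genes were called, in RYGB against BWm 6.36%, and in BWm against Sham AL 2.84%. At an unadjusted p under 0.05 there were 1, 2 and 2 of the 8 genes in that order of comparisons, beside 12.9%, 18.4% and 15.3% of all genes. By the authors' rule of p under 0.05 with a fold of at least 1.5, there were 0, 1 and 1 of the 8 genes, Lpl and then Lcat, beside 1.67%, 3.86% and 2.5% of all genes. The median difference of the 8 genes was log2 -0.09, -0.24 and 0.1, and that of all genes 0, 0 and -0.01. RYGB against BWm gave 7 negative differences and 1 positive one, which was Lpl. Leaving out Sham AL replicate 4 brought 1 call, Lpl higher in RYGB livers than in BWm livers, where 6.96% of all genes were then called and 4.36% were called higher.

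**Figure D1:**
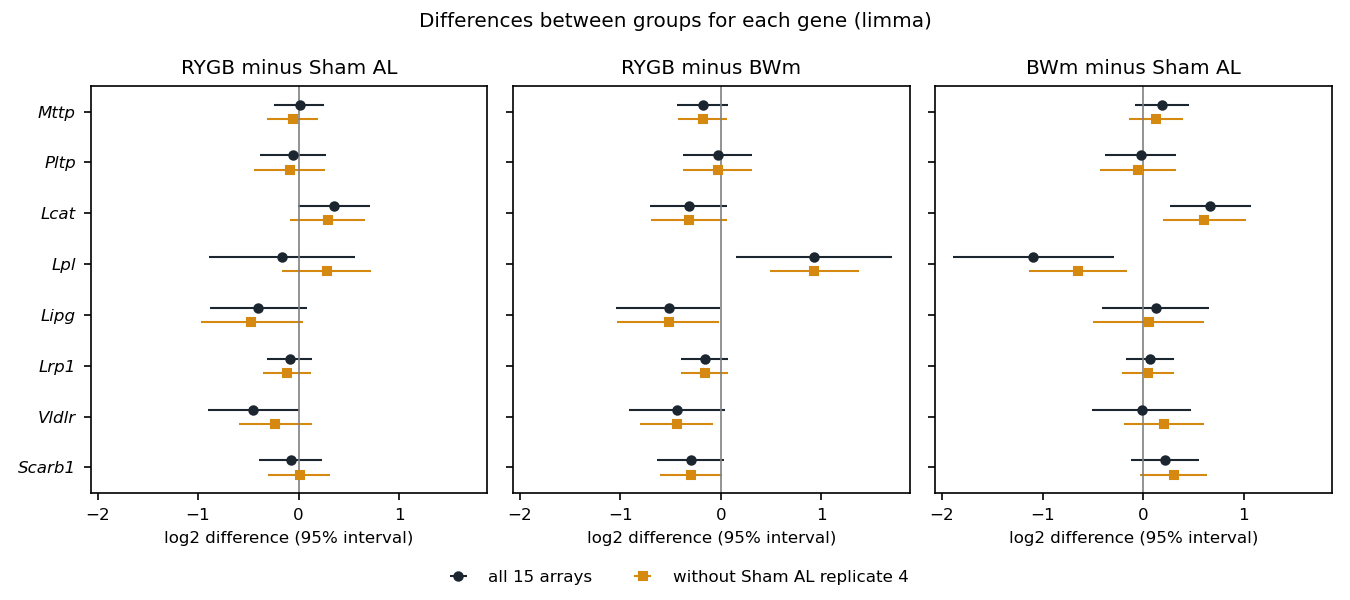
Log2 differences of the 8 genes (rows) in the comparisons RYGB minus Sham AL, RYGB minus BWm and BWm minus Sham AL, with 95% intervals from limma, from all 15 arrays (circles) and without Sham AL replicate 4 (squares). The Lpl interval in RYGB minus BWm spans 0.49 to 1.37 without that array and 0.15 to 1.7 with it.

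Mttp encodes the large subunit of the microsomal triglyceride transfer protein, which loads lipid onto nascent VLDL. It measured 9.13 to 9.74 in RYGB livers with a median of 9.49, 9.47 to 9.83 in BWm livers and 9.21 to 9.61 in Sham AL livers. The groups overlapped, with BWm livers highest on average and RYGB and Sham AL livers close together. The RYGB to Sham AL difference was log2 0.01 ± 0.12 (SE, adjusted p = 0.992), with a 95% interval of -0.24 to 0.25, so a change of 1.5-fold lay outside it in either direction. It was -0.18 ± 0.12 for RYGB against BWm (adjusted p = 0.48) and 0.19 ± 0.13 for BWm against Sham AL (adjusted p = 0.531).

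Other genes of VLDL assembly and secretion did pass the test. Of 14 measured genes on that list, 1 rose and 1 fell in RYGB against Sham AL. In RYGB against BWm 2 rose and 1 fell. In BWm against Sham AL limma called 0, with 4 at an unadjusted p under 0.05, beside 15.3% of all genes. Ces1d, a carboxylesterase that frees stored triglyceride for VLDL, measured 8.64, 8.28, 7.65, 8, 8.28 and 7.52 in RYGB livers, 9.22, 9.2, 9.19 and 9.25 in BWm livers and 8.95, 9.31, 9.08, 8.64 and 8.96 in Sham AL livers. Every RYGB value lay under all BWm values, and the highest RYGB value and the lowest Sham AL value were both 8.64. It fell by 0.93 against Sham AL on the log2 scale (SE 0.17, adjusted p = 0.00833) and by 1.15 against BWm (SE 0.18, adjusted p = 0.000628). Ces1 genes are close relatives, so its signal can mix copies. P4hb, a disulfide isomerase that is also the small subunit of the transfer protein, rose by log2 0.47 ± 0.1 (SE) against BWm (adjusted p = 0.00616). Its RYGB to Sham AL difference was log2 0.15 ± 0.09 (SE, adjusted p = 0.524). All BWm values of P4hb lay below all Sham AL values, with a difference of log2 -0.32 ± 0.1 (SE, adjusted p = 0.108), not called. Surf4, a receptor that carries lipoproteins out of the endoplasmic reticulum, rose by log2 0.47 ± 0.1 (SE) in RYGB against BWm (adjusted p = 0.0087). Its RYGB to Sham AL difference of log2 0.36 ± 0.1 (SE) was not called (adjusted p = 0.0803).

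Tm6sf2, a membrane protein needed to fill VLDL with lipid, rose by log2 1.03 ± 0.25 (SE) in RYGB livers against Sham AL livers (adjusted p = 0.0487). It measured 8.22 to 9.85 in RYGB livers with a median of 8.74, 8.4 to 9.09 in BWm livers and 7.41 to 8.39 in Sham AL livers. All BWm values lay above all Sham AL values, by log2 0.9 ± 0.28 (SE) on average, which was not called (adjusted p = 0.0958). The RYGB call lay at the threshold and was lost on leaving out any BWm array, any Sham AL array but replicate 1, or RYGB array 3, 4 or 6, where the adjusted p reached 0.132. Apob, the structural protein of VLDL, differed by log2 0 in RYGB against Sham AL (adjusted p = 0.991), 0.01 in RYGB against BWm (adjusted p = 0.965) and -0.02 in BWm against Sham AL (adjusted p = 0.954).

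**Figure D2:**
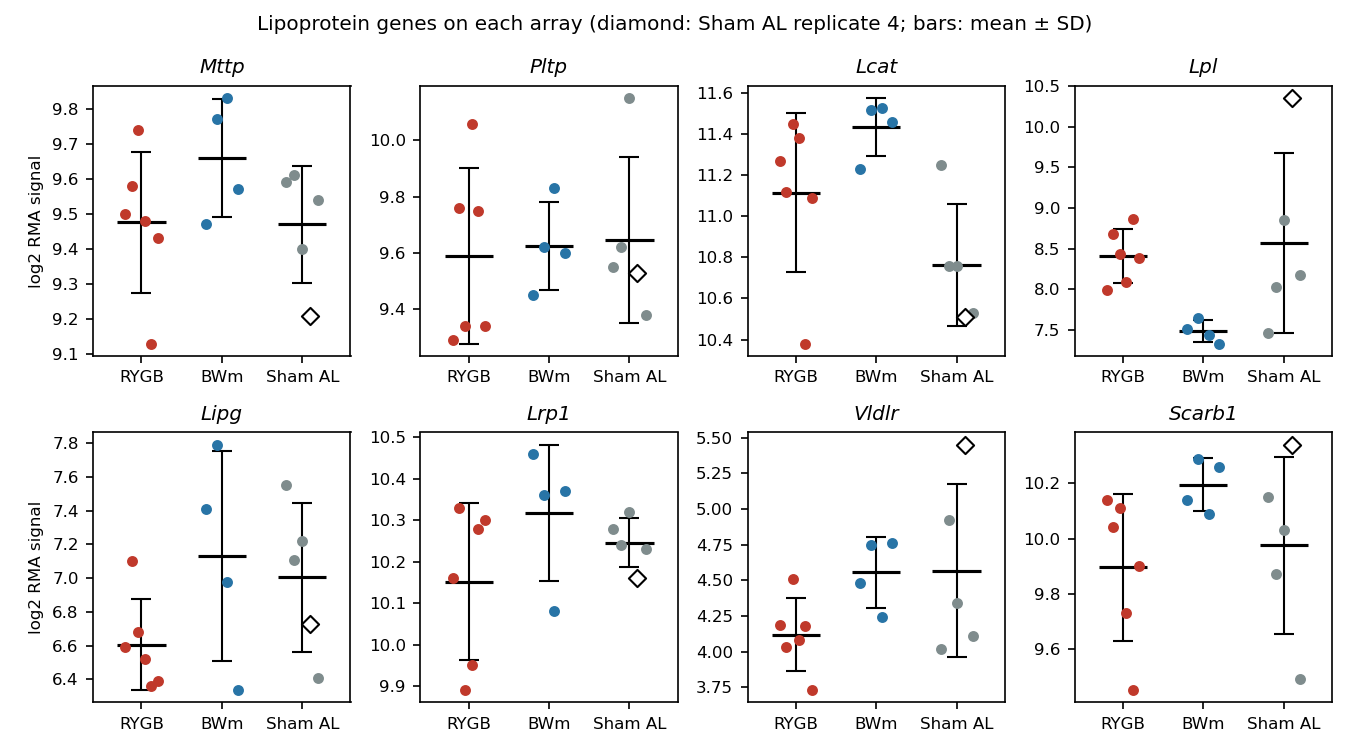
Log2 signal of the 8 genes on each array, by group (RYGB, BWm, Sham AL), with the mean and SD as bars and Sham AL replicate 4 as a diamond. Axes do not start at 0 and differ between panels. The 6 RYGB points of Lpl lie above the 4 BWm points, and in every other panel these 2 groups overlap.

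Lcat, made by the liver, esterifies cholesterol on HDL in plasma. It measured 11.23, 11.52, 11.53 and 11.46 in BWm livers and 11.25, 10.76, 10.76, 10.51 and 10.53 in Sham AL livers, and its RYGB values ran from 10.38 to 11.45 with a median of 11.2. In 3 of 4 BWm livers it exceeded every Sham AL liver, and the lowest BWm value lay just under the highest Sham AL value. The order was BWm, RYGB, Sham AL, with means of 11.43 ± 0.14 (SD, n = 4), 11.12 ± 0.39 (SD, n = 6) and 10.76 ± 0.3 (SD, n = 5). In BWm against Sham AL this was a difference of log2 0.67 ± 0.19 (SE, 1.59-fold, 95% interval 0.27 to 1.07, adjusted p = 0.0656), not called. It was called without RYGB replicate 5 (adjusted p = 0.0162) or without Sham AL replicate 1 (log2 0.79, adjusted p = 0.0292). Without Sham AL replicate 4 it was log2 0.61 (adjusted p = 0.124). RYGB differed from Sham AL by log2 0.35 ± 0.17 (SE, adjusted p = 0.399) and from BWm by -0.32 ± 0.18 (SE, adjusted p = 0.386), both within the spread of the arrays.

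Labels hold an animal number whose meaning they do not state, with 3 RYGB, 0 BWm and 1 Sham AL animals numbered under 50 and the rest over 60. Among animals numbered over 60, Lcat differed by log2 0.79 between BWm and Sham AL (adjusted p = 0.0412), and with a term for that split by 0.76 (adjusted p = 0.0184).

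Since Lcat had the smallest p of the 8 genes in that comparison, the 250 bases before its start are shown, at chr8:105943403-105943652 on the minus strand (RefSeq, GRCm38.p6), with the letters GATAAG in capitals.
Lcat upstream: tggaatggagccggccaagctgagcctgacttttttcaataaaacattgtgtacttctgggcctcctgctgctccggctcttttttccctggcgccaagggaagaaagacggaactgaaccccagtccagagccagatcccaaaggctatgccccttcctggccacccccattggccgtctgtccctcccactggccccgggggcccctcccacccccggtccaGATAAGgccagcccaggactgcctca
GATAAG is the core bound by GATA factors, was searched on both strands, and was chosen after the sequences were seen. It begins 26 bases before the Lcat start. Of 32851 RefSeq windows from 250 bases before to 50 after a start, 7.44% hold it. RefSeq windows of 5 of the 8 genes were counted, 6 windows in all, and 1 of the 6 holds it. That 1 is the Lcat window, seen before the letters were chosen, so the count is not a test. Lipg was left out of that count by hand, and no window was matched for Lpl and Scarb1. A match of letters is not a bound site.

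Pltp moves phospholipid between lipoproteins and enlarges HDL. It measured 9.29 to 10.06 in RYGB livers with a median of 9.55, 9.45 to 9.83 in BWm livers and 9.38 to 10.15 in Sham AL livers, so the 3 ranges lay over each other. Its differences were log2 -0.06 ± 0.15 (SE, adjusted p = 0.918) for RYGB against Sham AL, -0.03 ± 0.16 (SE, adjusted p = 0.954) for RYGB against BWm and -0.02 ± 0.17 (SE, adjusted p = 0.967) for BWm against Sham AL. The 3 intervals together reached from -0.38 to 0.33.

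Lpl, which hydrolyses triglyceride in VLDL and chylomicrons, gave the clearest separation between groups. In RYGB livers it measured 7.99, 8.68, 8.43, 8.09, 8.86 and 8.39. BWm livers gave 7.51, 7.65, 7.44 and 7.33, and Sham AL livers 7.46, 8.03, 8.85, 10.35 and 8.17. All 6 RYGB values lay above all 4 BWm values, a separation that 7.61% of all genes showed in one direction or the other. Sham AL livers spread over both groups, with the fat-bearing replicate 4 highest.

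RYGB exceeded BWm livers by log2 0.93, or 1.9-fold, in Lpl. With all arrays the SE was 0.37 and the adjusted p = 0.17. Without Sham AL replicate 4, which is in neither group but widens the shared estimate of spread, the SE was 0.21 and the adjusted p = 0.00995. In a fit of only the RYGB and BWm arrays the adjusted p was 0.00317. With Sham AL replicate 4 kept in, the difference was log2 0.97 among animals numbered over 60 (adjusted p = 0.246). With a term for that split, and that array also kept in, it was 1.19 (adjusted p = 0.0891). Neither of these fits was run without that array. BWm lay below Sham AL livers by log2 1.09 with all arrays (difference -1.09, SE 0.38, adjusted p = 0.149) and by 0.65 without replicate 4 (difference -0.65, SE 0.23, adjusted p = 0.17). Neither was called, and the first was called without Sham AL replicate 1 (log2 -1.37, adjusted p = 0.0497). RYGB against Sham AL gave log2 -0.16 ± 0.35 (SE, adjusted p = 0.893) with all arrays and 0.28 ± 0.21 (SE, adjusted p = 0.655) without replicate 4.

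The dimmer of the 2 Lpl clusters measured 4.29 to 5.1 in RYGB livers, 3.72 to 4.36 in BWm livers and 3.67 to 6.52 in Sham AL livers. Its RYGB to BWm difference pointed the same way at log2 0.57 but was not called with all arrays (SE 0.37, adjusted p = 0.477) or without Sham AL replicate 4 (SE 0.24, adjusted p = 0.187). This cluster lies near the array medians, and signal over background was not measured.

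Cells other than hepatocytes also make Lpl, and their markers are given beside it. The summed signal of 7 measured adipocyte markers, on the linear scale, was 111 to 246 in RYGB livers, 150 to 170 in BWm livers and 176 to 7231 in Sham AL livers, or 176 to 421 without replicate 4. In RYGB against BWm, limma called 0 of these 7 markers, with 0 at an unadjusted p under 0.05, and Plin1 measured 3.65 to 4.06 in RYGB livers and 3.53 to 4.24 in BWm livers. Adipoq stayed at or under 2.44 on every array but that of Sham AL replicate 4, below all array medians. The summed signal of 8 Kupffer cell and macrophage markers was 2075 to 3103 in RYGB livers, 1687 to 2525 in BWm livers and 1664 to 2685 in Sham AL livers, and 1 of the 8 was called in RYGB against BWm. This was Cd68, a lysosomal macrophage protein, with 9.12 ± 0.28 in RYGB livers (SD, n = 6) and 8.4 ± 0.25 in BWm livers (SD, n = 4), log2 0.72 ± 0.17 (SE, adjusted p = 0.016). Clec4f, Vsig4, Timd4, Cd5l, Marco, Adgre1 and Csf1r were the 7 not called in that comparison. At an unadjusted p under 0.05 there were 4 of the 8 in RYGB against Sham AL, beside 12.9% of all genes. There were 3 of the 8 in RYGB against BWm, beside 18.4% of all genes. In RYGB against BWm the markers under that p were Cd68, Adgre1 and Csf1r, a macrophage growth factor receptor. Adgre1 differed by log2 0.44 ± 0.15 (SE, adjusted p = 0.0891) and Csf1r by log2 0.4 ± 0.16 (SE, adjusted p = 0.174). Clec4f, Vsig4, Timd4, Cd5l and Marco did not reach that p in RYGB against BWm, where Marco differed by log2 0.022 (adjusted p = 0.985). The median difference over all 8 markers in that comparison was log2 0.19, smaller than those of Cd68, Adgre1 and Csf1r. In RYGB against Sham AL, Adgre1, a surface protein of macrophages, was the one called, with log2 0.64 ± 0.14 (SE, adjusted p = 0.0252), a call lost without Sham AL replicate 4. The part of macrophages in the Lpl difference was not tested.

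**Figure D3:**
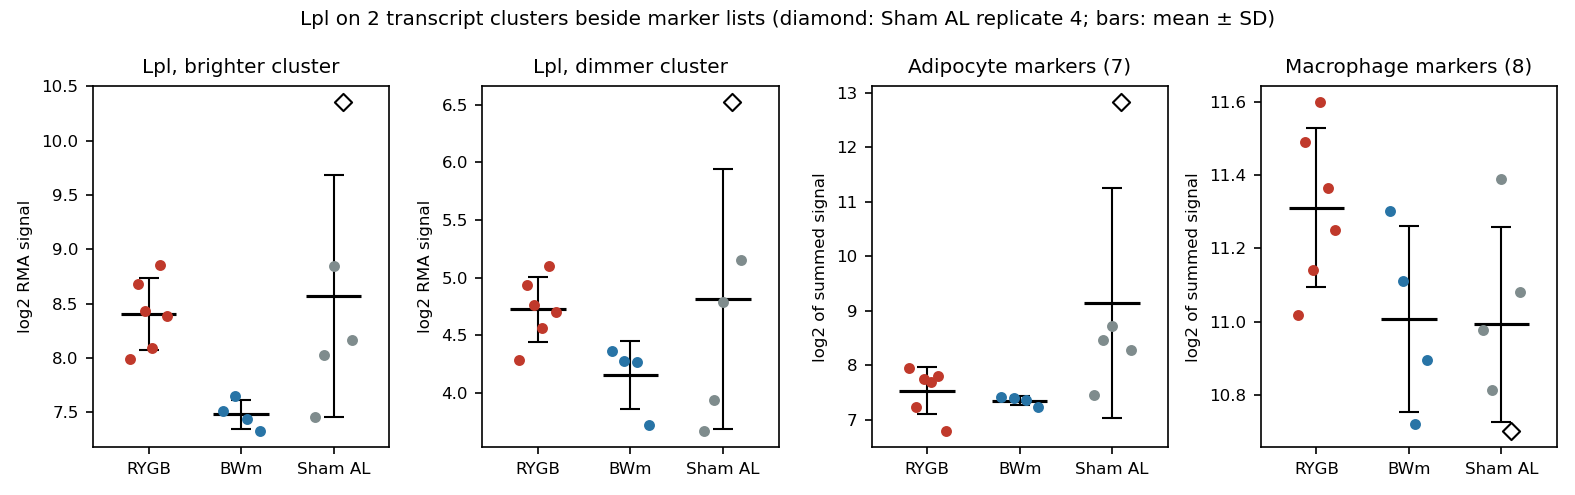
Log2 signal of the brighter and the dimmer Lpl cluster, and log2 of the summed linear signal of 7 adipocyte and 8 macrophage markers, on each array by group, with the mean and SD as bars and Sham AL replicate 4 as a diamond. That array is highest in Lpl and in adipocyte markers, and RYGB and BWm livers separate in the brighter cluster only.

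Over the 14 arrays without Sham AL replicate 4, the 3 genes closest to Lpl among 6548 genes with a mean of at least 6 were Iqgap1 (Pearson's r = 0.91), Nckap1l (r = 0.91) and Evl (r = 0.9). All 3 encode proteins of the actin skeleton, Nckap1l in blood cells. They are given as a description, since they were picked as the highest among all of these, and arrays of one group share their treatment. Each was higher in all RYGB livers than in all BWm livers, with log2 0.65, 0.6 and 0.6 (adjusted p = 0.0105, 0.0281 and 0.00729).

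Lipg, the endothelial lipase, cuts phospholipid of HDL. It measured 6.36 to 7.1 in RYGB livers with a median of 6.55, 6.34 to 7.79 in BWm livers and 6.41 to 7.55 in Sham AL livers. RYGB livers were lowest on average, yet BWm replicate 4 lay under all of them and Sham AL replicates 4 and 5 among them. The difference was log2 -0.4 ± 0.23 (SE, adjusted p = 0.498) against Sham AL and -0.52 ± 0.24 (SE, 95% interval -1.04 to -0.01, adjusted p = 0.26) against BWm, and neither was called. BWm and Sham AL livers differed by log2 0.13 ± 0.25 (SE, adjusted p = 0.875). Of 7 endothelial markers limma called 0 in any comparison. At an unadjusted p under 0.05 there were 1 in RYGB against Sham AL, 3 in RYGB against BWm and 2 in BWm against Sham AL. The shares of all genes were 12.9%, 18.4% and 15.3% in that order. The summed signal of the 7 markers was 1053 to 1708 in RYGB livers. It was 1720 to 2020 in BWm livers and 1550 to 1836 in Sham AL livers. All 6 RYGB livers thus lay under the lowest BWm liver in summed endothelial signal. Among single genes, 7.61% separated these 2 groups in one direction or the other. The part of endothelial signal in the Lipg values was not tested.

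Among 7 measured genes of the lipase family, Lpl and Lipg included, Pla1a alone was called with all arrays. It encodes a phospholipase specific for phosphatidylserine and rose in BWm livers, 7.63 ± 0.18 (SD, n = 4), against Sham AL livers, 7.07 ± 0.2 (SD, n = 5), by log2 0.55 ± 0.12 (SE, adjusted p = 0.0191). That call was lost on leaving out BWm array 1, 2 or 4 or Sham AL array 2, where the adjusted p reached 0.0558.

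Of 12 measured regulators of the lipases, 1 rose and 1 fell in RYGB against Sham AL, 1 rose and 2 fell in RYGB against BWm, and 1 rose in BWm against Sham AL. Angptl4, a secreted inhibitor of lipoprotein lipase, measured 8.76, 8.81, 8.23, 8.97, 8.96 and 8.7 in RYGB livers, 9.8, 10.14, 9.98 and 9.35 in BWm livers and 8.84, 8.87, 9.1, 8.76 and 8.87 in Sham AL livers. BWm livers stood above all livers of both other groups, which overlapped. It fell by 1.08 in RYGB against BWm on the log2 scale (SE 0.16, adjusted p = 0.000342) and rose by log2 0.93 ± 0.16 (SE, adjusted p = 0.0038) in BWm against Sham AL. RYGB against Sham AL gave -0.15 ± 0.15 (SE, adjusted p = 0.726). The first 2 comparisons share the BWm arrays, so they are not independent of each other. The Lpl and Angptl4 differences between RYGB and BWm livers thus had opposite signs.

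Apoa5, an apolipoprotein that promotes cutting of triglyceride by lipoprotein lipase, measured 8.15 to 9.36 in RYGB livers with a median of 9.13, 9.88 to 10.43 in BWm livers and 9.46 to 9.89 in Sham AL livers. Every RYGB value lay below both other groups. It fell by 1.13 against BWm on the log2 scale (SE 0.19, adjusted p = 0.00127), while -0.63 ± 0.18 (SE) against Sham AL was not called (adjusted p = 0.111). Sel1l, an adaptor of protein disposal in the endoplasmic reticulum that mouse lipoprotein lipase needs to leave it, rose by log2 0.77 ± 0.12 (SE) against BWm (adjusted p = 0.000852) and by log2 0.51 ± 0.12 (SE) against Sham AL (adjusted p = 0.0384). It measured 9.18 to 9.78 in RYGB livers with a median of 9.41, 8.54 to 8.86 in BWm livers and 8.66 to 9.15 in Sham AL livers, so RYGB livers lay above all others. The call against Sham AL was lost on leaving out any Sham AL array but replicate 1, or RYGB array 2, 3, 4 or 6, where the adjusted p reached 0.0912.

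Pcsk6, a convertase that can cut lipases and their inhibitors, fell by 0.65 on the log2 scale in RYGB against Sham AL (SE 0.12, adjusted p = 0.0102), with 8.41 ± 0.23 in RYGB livers (SD, n = 6) and 9.06 ± 0.22 in Sham AL livers (SD, n = 5). BWm livers lay between on average, at 8.7 ± 0.06 (SD, n = 4). Pcsk6 differed by log2 -0.35 ± 0.13 in BWm against Sham AL (SE, adjusted p = 0.185) and -0.3 ± 0.13 in RYGB against BWm (SE, adjusted p = 0.216), neither called. In RYGB livers Gpihbp1, which holds lipoprotein lipase on the capillary wall, differed by log2 -0.05 against Sham AL (adjusted p = 0.909) and -0.09 against BWm (adjusted p = 0.799). Lmf1, a factor that lipases need to fold, differed by log2 0 (adjusted p = 0.998) and -0.01 (adjusted p = 0.99) in the same order.

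Lrp1, the large receptor for remnants on hepatocytes, had the smallest standard errors of the 8 genes. It measured 9.89 to 10.33 in RYGB livers with a median of 10.22, 10.08 to 10.46 in BWm livers and 10.16 to 10.32 in Sham AL livers. Differences were log2 -0.09 ± 0.1 (SE, 95% interval -0.31 to 0.13, adjusted p = 0.775) for RYGB against Sham AL, -0.16 ± 0.11 (SE, -0.4 to 0.07, adjusted p = 0.488) for RYGB against BWm and 0.07 ± 0.11 (SE, -0.17 to 0.31, adjusted p = 0.834) for BWm against Sham AL. Each of these intervals lay within 1.5-fold in both directions.

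Vldlr, a receptor for triglyceride-rich particles that normal liver makes at low level, measured 3.73 to 4.51 in RYGB livers with a median of 4.13, 4.24 to 4.76 in BWm livers and 4.02 to 5.45 in Sham AL livers. These values lie near the array medians, where signal over background was not measured. In 5 of 6 RYGB livers it lay below every BWm liver, and the Sham AL livers spread over both groups with replicate 4 highest. RYGB differed from BWm by log2 -0.44 ± 0.23 (SE, adjusted p = 0.326), and without Sham AL replicate 4 by -0.44 ± 0.17 (SE, adjusted p = 0.156). Against Sham AL the difference was -0.45 ± 0.21 (SE, adjusted p = 0.385) with all arrays and -0.23 ± 0.17 (SE, adjusted p = 0.661) without that array.

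Scarb1 takes cholesteryl ester from HDL into hepatocytes and adrenal cells. It measured 9.45 to 10.14 in RYGB livers with a median of 9.97, 10.09 to 10.29 in BWm livers and 9.49 to 10.34 in Sham AL livers, with the adrenal-bearing replicate 4 highest. BWm livers were highest on average. RYGB differed from BWm by log2 -0.3 ± 0.16 (SE, adjusted p = 0.329), and from Sham AL by -0.08 ± 0.15 (SE, adjusted p = 0.87) with all arrays and 0.01 ± 0.15 (SE, adjusted p = 0.992) without replicate 4. BWm differed from Sham AL by 0.22 ± 0.16 (SE, adjusted p = 0.585), and by 0.31 ± 0.16 without replicate 4 (SE, adjusted p = 0.412).

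Of 9 measured members of the LDL receptor family, Lrp1 and Vldlr included, limma called 0 in RYGB against Sham AL. There 1 was at an unadjusted p under 0.05, beside 12.9% of all genes. In RYGB against BWm 2 fell, and in BWm against Sham AL 2 rose. Both times these were Lrp4 and Lrp6, receptors best known for signalling in muscle, bone and the Wnt pathway. Lrp4 measured 6.98, 6.58, 6.59, 6.59, 6.65 and 6.66 in RYGB livers, 7.49, 7.45, 7.29 and 7.33 in BWm livers and 7.06, 6.83, 6.96, 6.65 and 6.61 in Sham AL livers. It fell by 0.71 in RYGB against BWm on the log2 scale (SE 0.11, adjusted p = 0.000699) and rose by log2 0.57 ± 0.12 (SE, adjusted p = 0.0121) in BWm against Sham AL. Lrp6 measured 8.47 to 8.81 in RYGB livers, 9.17 to 9.47 in BWm livers and 8.58 to 8.92 in Sham AL livers. It fell by 0.6 in RYGB against BWm on the log2 scale (SE 0.1, adjusted p = 0.00144) and rose by log2 0.55 ± 0.11 (SE, adjusted p = 0.00968) in BWm against Sham AL. For both genes the BWm livers lay above all others, and the 2 comparisons share the BWm arrays.

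Of 12 measured partners of lipoprotein uptake, 1 fell in RYGB against Sham AL and 3 fell in RYGB against BWm. In BWm against Sham AL limma called 0, with 4 at an unadjusted p under 0.05, beside 15.3% of all genes. Mylip, a ubiquitin ligase that sends receptors of the LDL receptor family, Vldlr among them, to degradation, fell by 0.5 on the log2 scale against BWm (SE 0.12, adjusted p = 0.0136). It measured 7.03 to 7.33 in RYGB livers, 7.5 to 7.93 in BWm livers and 7.03 to 7.53 in Sham AL livers. Sulf2, which trims the heparan sulfate chains that bind remnants, fell by 0.54 on the log2 scale against BWm (SE 0.13, adjusted p = 0.0185) and by 0.54 against Sham AL (SE 0.12, adjusted p = 0.039). Sulf2 measured 6.62 to 7.17 in RYGB livers, 7.22 to 7.59 in BWm livers and 7.1 to 7.71 in Sham AL livers. The calls of Mylip and Sulf2 against BWm were lost on leaving out BWm array 2 or 3, where adjusted p reached 0.067 and 0.0802. That of Sulf2 against Sham AL was lost on leaving out any Sham AL array but replicate 5, or RYGB array 2, 4, 5 or 6 (adjusted p reaching 0.094). Gulp1, an adaptor that binds Lrp1, fell by 0.43 against BWm (SE 0.12, adjusted p = 0.0356), but at 2.87 to 3.17 in RYGB livers and 3.09 to 3.79 in BWm livers it lay below all array medians. Leaving out RYGB array 1, 2, 4 or 5 or BWm array 1, 3 or 4 ended that call (adjusted p reaching 0.155).

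Among 9 measured genes of HDL formation and sterol export, Apom was called in both comparisons with Sham AL and the sterol pump genes Abcg5 and Abcg8 in RYGB against BWm. Apom, the HDL protein that carries sphingosine 1-phosphate, measured 7.71, 7.91, 7.79, 7.66, 7.98 and 7.81 in RYGB livers, 8.06, 8.2, 7.51 and 7.66 in BWm livers and 7.16, 6.94, 6.87, 7.1 and 7.07 in Sham AL livers. RYGB and BWm livers all lay above every Sham AL liver and overlapped each other. It rose by log2 0.78 ± 0.12 (SE, adjusted p = 0.00225) in RYGB against Sham AL and by log2 0.83 ± 0.13 (SE, adjusted p = 0.00232) in BWm against Sham AL, comparisons that share the Sham AL arrays. RYGB and BWm livers differed by log2 -0.05 ± 0.13 (SE, 95% interval -0.32 to 0.22, adjusted p = 0.904).

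Abcg5 and Abcg8 encode the paired subunits of the pump that exports sterols into bile. Abcg5 measured 8.65, 8.18, 9.07, 8.51, 7.72 and 8.27 in RYGB livers, 9.6, 8.77, 9.16 and 9.67 in BWm livers and 9.29, 9.09, 9, 8.66 and 8.97 in Sham AL livers. Abcg8 measured 8.78, 8.31, 9.02, 8.73, 7.86 and 8.59 in RYGB livers, 9.67, 8.92, 9.37 and 9.99 in BWm livers and 9.42, 9.29, 9, 8.65 and 9.09 in Sham AL livers. In both genes 5 of 6 RYGB livers lay under every BWm liver, RYGB replicate 5 was lowest and RYGB replicate 3 reached into the BWm range. Against BWm, Abcg5 fell by 0.9 (SE 0.22, adjusted p = 0.0164) and Abcg8 by 0.94 (SE 0.22, adjusted p = 0.0131) on the log2 scale. The Abcg5 call ended without BWm replicate 1 or 4 and the Abcg8 call without BWm replicate 4 (adjusted p of up to 0.0653 and 0.057).

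These 2 genes lie head to head and their values moved together, so the 109 bases between their RefSeq starts are shown, at chr17:84683012-84683120 on the plus strand (GRCm38.p6). Capitals mark the GATAAG letters read on the other strand.
Abcg5-Abcg8 intergenic: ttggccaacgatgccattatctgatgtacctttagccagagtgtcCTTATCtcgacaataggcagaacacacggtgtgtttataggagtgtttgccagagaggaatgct
The match begins 51 bases before the Abcg5 start and 64 bases before the Abcg8 start, and is a description only.

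Over all 6 lists, without the 8 genes and counting each gene once, 59 of 68 genes were measured. In RYGB against Sham AL 6 of the 59 were called, 3 higher and 3 lower (10.2%, beside 1.38% of all genes). In RYGB against BWm 13 were called, 3 higher and 10 lower (22%, beside 6.36%), and in BWm against Sham AL 5 were called, all higher (8.47%, beside 2.84%). Their median differences were log2 -0.05, -0.14 and 0.07 in this order. Without Sham AL replicate 4 the counts were 1 higher and 2 lower, 4 higher and 10 lower, and 5 higher and 0 lower, where 1.43%, 6.96% and 2.25% of all genes were called. The shares of all genes include dim genes, which were not filtered out, and a share among genes of like level was not computed. With only genes of a mean of at least 5, 446, 1749 and 1046 genes were called in the same order, 8, 13 and 11 of them listed. How many genes, and how many listed ones, passed that filter is not given here, so these counts do not give shares. Among animals numbered over 60, the calls of Pcsk6, Sel1l and Sulf2 in RYGB against Sham AL and of Surf4, Mylip and Gulp1 in RYGB against BWm were lost, with adjusted p of 0.0528 to 0.151. These lists were chosen with earlier results of these data known.

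**Figure D4:**
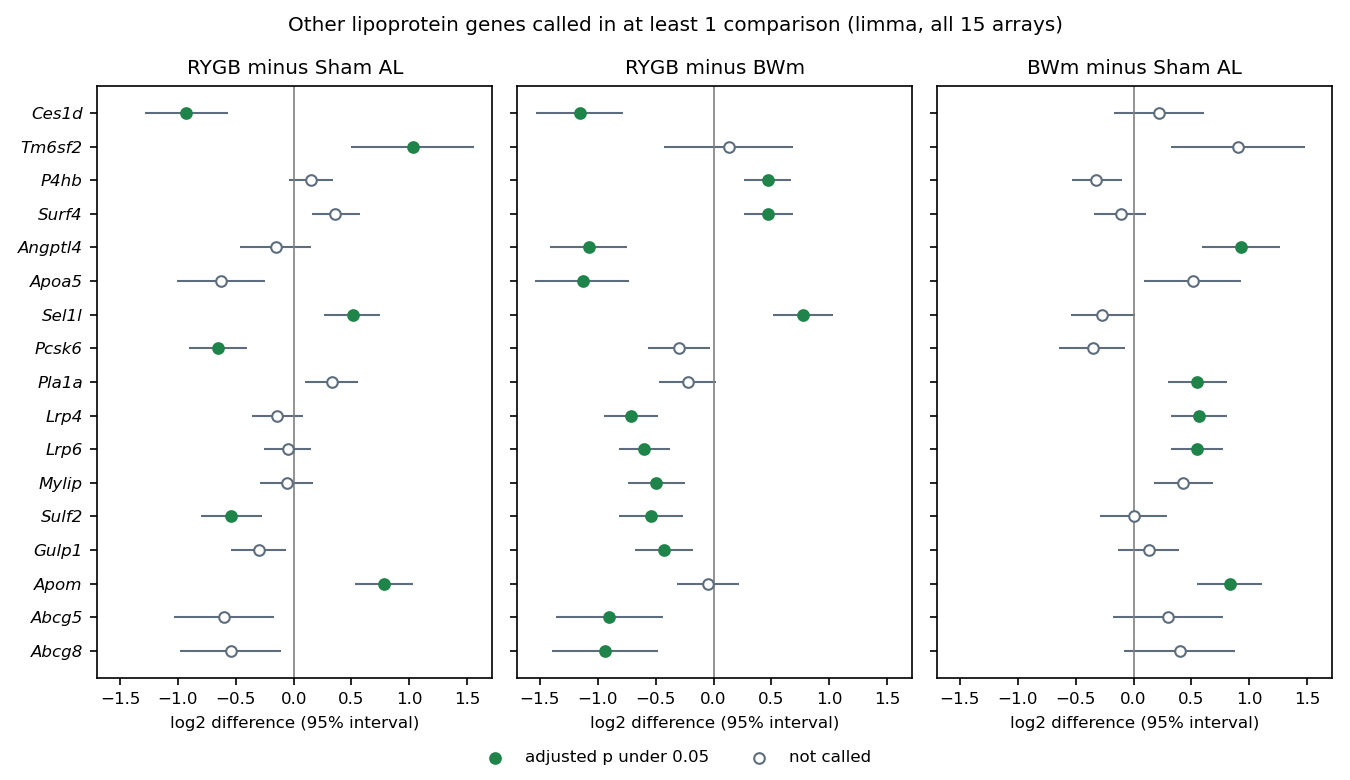
Log2 differences with 95% intervals from limma for the 17 listed genes (rows) called in at least 1 comparison, in RYGB minus Sham AL, RYGB minus BWm and BWm minus Sham AL, filled where the adjusted p is under 0.05. Angptl4, Lrp4 and Lrp6 are filled left of 0 in the middle panel and right of 0 in the third.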

How the data were processed

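The authors normalized the 15 arrays as 1 set by the RMA (robust multi-array average) method in Affymetrix Expression Console 1.4.1.46, per the labels and the design text. They deposited log2 signals for 41345 transcript clusters. RMA pulls arrays to 1 distribution, so changes are relative to the bulk of transcripts, and folds of dim genes are compressed. The probe table named 1 symbol for 23521 clusters. The cluster with the highest mean was kept for each of 22180 genes, with no filter on level. Groups came from the sample titles. Group means were fitted in 1 limma fit (limma 3.58.1, R 4.3.3) of all 15 arrays (residual degrees of freedom 12, prior 5.85), with two-sided contrasts and Benjamini-Hochberg adjustment over all genes. The script was tested on simulated data. The number of arrays limits the precision, and Sham AL replicate 4 widens the estimated spread of Lpl.

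The genes and lists were chosen with earlier results of these data known. Beyond the 9 genes, the text names list members called in a comparison (up to 4 per list and comparison), the 3 genes most like a called one, and markers. Apob, Gpihbp1 and Lmf1 fall outside that rule and were chosen after their values were seen. The likeness was given for Lpl, which was called without Sham AL replicate 4 but not with all arrays. Replicate numbers are shared by groups and were not used as a pairing in the main fit. Of 13 same-numbered pairs 3 had a correlation of deviations over 0.1, which alone cannot settle whether the numbers pair arrays. Alternatives were leaving out each array, the replicate block, the animal number, array weights, quantile normalization, median centring, a level filter, other cluster rules, fits of the compared groups only, another variance prior, and the authors' analysis of variance with a fold of at least 1.5. Tables and figures used Python 3.11.15, pandas 2.3.3 and matplotlib 3.10.9.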

Additional observations from a re-analysis of the deposited data

Results flagged for a closer look

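In 75 groups tested over 25 genes, 3 arrays lay far from the others of their group by Dixon's test, and chance flags about 1 group in 20. Lcat measured 10.38 on RYGB replicate 5, against 11.09 to 11.45 on the other RYGB arrays. Angptl4 measured 8.23 on RYGB replicate 3, against 8.7 to 8.97 on the others. Lrp4 measured 6.98 on RYGB replicate 1, against 6.58 to 6.66 on the others. RYGB replicate 5 was also the lowest RYGB array in Mttp at 9.13 and in Scarb1 at 9.45.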

How the results depend on the processing

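Of 669 alternative values of the 24 differences of the 8 genes, 623 kept their direction and their side of the threshold, 12 became calls and 34 changed sign, none of these called. In BWm against Sham AL, 1 of the 8 genes (Lcat) was called with a filter on level, with the compared groups only, with a term for animal number, among animals numbered over 60, and by the authors' analysis of variance rule. In RYGB against BWm, 1 (Lpl) was called with the compared groups only and by analysis of variance, also after Benjamini-Hochberg adjustment. Leaving out 1 array at a time called 0 of the 8 genes in RYGB against Sham AL, 0 to 1 in RYGB against BWm and 0 to 2 in BWm against Sham AL. The Lpl difference in RYGB against BWm ran over 0.75 to 1.19 (adjusted p 0.00317 to 0.288) and the Lcat difference in BWm against Sham AL over 0.55 to 0.79 (adjusted p 0.0162 to 0.177) across 27 alternatives.

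Among all genes, the level filter called 1046 in BWm against Sham AL, against 629. In the order RYGB against Sham AL, RYGB against BWm and BWm against Sham AL, analysis of variance with Benjamini-Hochberg adjustment called 54, 833 and 90, and the authors' rule 857 in the middle one. Leaving out 1 array called 144 to 398 (fewest without Sham AL replicate 2), 930 to 1544 (fewest without BWm replicate 3) and 284 to 646 (fewest without BWm replicate 2 or 3). Of the other 59 genes, 11 were called with the level filter in BWm against Sham AL. There were 3 in RYGB against Sham AL with the compared groups only, 3 there and 8 in BWm against Sham AL among animals over 60, and 8 in RYGB against BWm by the authors' rule. Analysis of variance after adjustment called 1, 8 and 0 of them in the same order, and leaving out 1 array 3 to 7, 10 to 14 and 4 to 7. The lowest, 3, came on leaving out Sham AL array 2, 3 or 4 or RYGB array 4 or 6.

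With the replicate block, 174, 903 and 325 of all genes and 3, 8 and 3 of the 59 were called. Named genes that lost their call were Tm6sf2, Sel1l and Sulf2 in RYGB against Sham AL. In RYGB against BWm they were P4hb, Mylip, Sulf2, Gulp1, Abcg5 and Abcg8, and in BWm against Sham AL Pla1a and Lrp6. The adjusted p of these lost calls ran from 0.0562 (P4hb) to 0.134 (Sel1l). Deviations of same-numbered arrays from their group means correlated at -0.17 to 0.19. Differently numbered arrays were not compared, so this does not settle whether the numbers pair arrays.

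Signs changed for differences of at most 0.16 in size. For RYGB against Sham AL, Mttp was -0.02 with quantile normalization, -0.01 with array weights, -0.06 with the animal number term and -0.09 among animals over 60, Lpl 0.04 with array weights and Pltp 0.04 among animals over 60. For RYGB against BWm, Pltp was 0.03 with the block, 0.07 with the term and 0.09 among animals over 60. For BWm against Sham AL, Lrp1 was -0.01 with quantile normalization, Vldlr 0.04 with it and with array weights and 0.05 with array medians subtracted, and Pltp 0.04 with medians subtracted. Leaving out 1 array, the range for RYGB against Sham AL was -0.06 to 0.08 for Mttp, -0.44 to 0.28 for Lpl, -0.15 to 0.07 for Pltp and -0.2 to 0.01 for Scarb1. It was -0.13 to 0.03 for Pltp in RYGB against BWm, and in BWm against Sham AL -0.1 to 0.39 for Lipg, -0.15 to 0.21 for Vldlr and -0.09 to 0.1 for Pltp. The cause was not tested.

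Only 15 arrays were measured, 1 of them with fat and adrenal transcripts, and without scanner files the dim signals of Vldlr, Gulp1 and the second Lpl cluster cannot be set against background. RMA values do not give absolute levels, Lipc and 9 of the 68 listed genes were not analysed here, and transcript levels were compared, not lipase activity or plasma lipoproteins.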
